A study of Rattus norvegicus with 24 samples.

Results

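The neuromuscular junction genes studied here are the subunits of the muscle acetylcholine receptor and the genes of the agrin pathway that gathers the receptor under the nerve terminal. They were chosen by name, and 9 of the 10 named genes had a row among the 32883 genes of the normalized count table. These were the receptor subunits Chrna1, Chrnb1, Chrnd and Chrne, the agrin gene Agrn, and Lrp4, Musk, Dok7 and Rapsn. Chrng, which encodes the fetal gamma subunit, was not analysed here. Each of the 9 symbols had 1 row, and all 9 passed the filter on low values, a mean of at least 2 normalized counts over the 24 samples, among 16287 genes that did.

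The RNA came from the urethra of female virgin Sprague-Dawley rats, 12 weeks old, after simulated vaginal delivery (SVD), in which the pudendal nerves were crushed and the vagina was distended. An hour later the rats received saline or 500000 mesoangioblasts (MABs) into the aorta. MABs are vessel-associated progenitor cells, here grown from rat hind limb muscle. MABsallo came from a donor other than the recipient. For tracking, the study gave MABs a lentiviral eGFP and luciferase reporter under the CMV promoter and sorted them for GFP. For MABsallo-VEGF it used a lentiviral vector with VEGF and a truncated CD34 under the SFFV promoter. Its supplement lists the vectors as alternatives, and its results call MABsallo untransduced. Whether the cells given to the sequenced rats carried the reporter is not stated. Urethras were taken at 3d or 7d, which gave 6 groups (saline, MABsallo and MABsallo-VEGF at each day) of 4 rats. The labels give the tissue genotype as WT, or as VEGF OE where the injected cells overexpressed VEGF. Every group was injured, so none shows the intact junction. The study describes the allogeneic cells as a cell line, and reads from injected rat cells and from the host cannot be told apart in these libraries. In the MABsallo-VEGF 7d group, replicates 6 and 7 carry the word recovery in their labels and replicates 11 and 12 do not.

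The junction between motor nerve and striated muscle depends on receptors packed at very high density under the nerve ending. The nerve releases agrin, which binds LRP4, and this complex switches on the receptor tyrosine kinase MuSK. MuSK, with its cytoplasmic activator DOK7, drives the scaffold protein rapsyn to anchor the receptors. Fetal receptors carry the gamma subunit and adult receptors carry the epsilon subunit encoded by Chrne, while alpha, beta and delta are shared. When a striated fibre loses its nerve, genes such as Chrna1, Chrng and Musk are known to become active along the whole fibre, and the myogenic factors that bind E-boxes take part in this. In the urethra the striated fibres form the external sphincter, which the pudendal nerve supplies.

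RefSeq promoters (build GRCr8, which is not the Rnor6.0 build of the counts) were found for 7 of the 9 genes. The 250 bases before the annotated start are shown for Musk, the member that changed most, and for 3 receptor subunits with which it can be compared. Capitals mark an E-box, CANNTG, the core that myogenic factors bind, or the N-box core CCGGAA on either strand, which Ets factors bind. Each line runs 5′ to 3′ on the strand of the gene.
Musk, chr5:77853486-77853735, + strand: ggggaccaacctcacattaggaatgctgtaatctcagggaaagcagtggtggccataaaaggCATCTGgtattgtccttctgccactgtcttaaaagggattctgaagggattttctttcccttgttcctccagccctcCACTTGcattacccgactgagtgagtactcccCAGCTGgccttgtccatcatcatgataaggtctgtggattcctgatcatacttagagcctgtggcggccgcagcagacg
Chrna1, chr3:78877354-78877603, - strand: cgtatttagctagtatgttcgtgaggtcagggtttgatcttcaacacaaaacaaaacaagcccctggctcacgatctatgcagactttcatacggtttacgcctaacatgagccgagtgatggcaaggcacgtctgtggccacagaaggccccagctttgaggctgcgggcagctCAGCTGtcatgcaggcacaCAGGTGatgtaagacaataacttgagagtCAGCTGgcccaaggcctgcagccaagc
Chrnd, chr9:95310066-95310315, + strand: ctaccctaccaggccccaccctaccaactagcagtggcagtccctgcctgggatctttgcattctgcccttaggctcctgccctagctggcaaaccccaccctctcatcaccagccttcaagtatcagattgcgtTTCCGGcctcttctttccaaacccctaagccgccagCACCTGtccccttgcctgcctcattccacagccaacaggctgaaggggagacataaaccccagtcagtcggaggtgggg
Chrne, chr10:55834155-55834404, - strand: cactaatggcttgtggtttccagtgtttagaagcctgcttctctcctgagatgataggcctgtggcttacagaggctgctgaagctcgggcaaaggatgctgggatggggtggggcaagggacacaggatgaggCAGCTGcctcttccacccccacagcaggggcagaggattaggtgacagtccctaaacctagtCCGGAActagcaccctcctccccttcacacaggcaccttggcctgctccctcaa

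These windows held 3 E-boxes for Musk, 3 for Chrna1, 1 for Chrnd and 1 for Chrne. Chrnb1 had 3, Dok7 had 1 and Agrn had 0. An E-box occurred in 65.5% of 33469 rat promoters of this length, so its presence sets none of these genes apart. The form CAGCTG, itself an E-box, occurred in 11.97% of promoters and was found 2 times for Chrna1 and once each for Musk, Chrnb1 and Chrne. The N-box core, present in 12.6% of promoters, was found once each for Chrnd and Chrne and in none of the other 5 windows. These are matches of letters only, and no binding was measured.

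Libraries held 2170695 to 10166052 gene reads, and the 3d libraries of both MAB groups were the shallower ones, with 2170695 to 4491900. One read was worth 1.67 to 9.23 normalized counts. Results are given with and without 2 samples that stood apart. Saline 3d replicate 6 lay at 54.6 on the first principal component (70.7% of the variance). Saline 3d replicates 8, 9 and 10 lay at -52.3, -14.9 and -6.43. Replicate 8, within the range of the 7d samples (-55.8 to -26.6), was kept. MABsallo-VEGF 3d replicate 4 lay at 0.702 against 57.3 to 75.2 in the rest of its group. The 2 samples left out lay towards the groups they are compared with at 3d, so leaving them out favours a difference from saline. Because these 2 were singled out on these same counts, values without them (22 samples) describe the remaining samples and are no independent test. No library was at 0 for any of the 12 mature striated fibre, 6 smooth muscle, 6 Schwann cell or 6 macrophage markers, and libraries of 2 groups lacked reads for 1 of 6 urothelial markers. The tissue is therefore a mixture, and in it fewer cells of a type and less RNA per cell cannot be told apart.

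Musk (ENSRNOG00000033567) was the single member called in the fit of 24 samples. In MABsallo-treated urethra at 3d it stood at 131 ± 79.6 normalized counts, against 11.2 ± 20.1 in saline (SD, n = 4 each). The MABsallo 3d samples had 63.9, 175, 222 and 65.1 normalized counts, from 9, 32, 24 and 12 reads. The saline 3d samples had 41.3, 0, 3.57 and 0, from 12, 0, 1 and 0 reads. Every MABsallo sample was thus above every saline sample, and 14.7% of all genes likewise did not overlap in this comparison, in either direction. The highest saline value belonged to replicate 6, the sample that stood apart. The read total was 77 in MABsallo and 13 in saline, although the MABsallo libraries were shallower, and the ratio of depth-weighted levels was 10.7 (exact 95% interval 5.88 to 20.9, counting error only).

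In the fit of log2(normalized count + 1) across all genes, Musk rose by 4.93 ± 1.07 (log2 fold change ± SE, limma, adjusted p = 0.0084). A gene was called at an adjusted p below 0.05 and a change of more than 1 on the log2 scale. By that rule 1 of 9 members and 12.3% of all 16287 genes were called in this comparison. The call held in 8 of 8 fits that left out 1 sample, with limma adjusted p from 0.000572 to 0.0445, the largest without saline 3d replicate 8. It did not hold where the spread was estimated from these 8 samples alone (limma, adjusted p = 0.0645). Without the 2 samples that stood apart, the change was 6.10 ± 0.946 (limma, adjusted p = 0.000169), with 18.1% of genes called. Saline then rested on 1 read in 3 libraries, so the ratio of 102 had an interval of 17.8 to 4094, and the fitted value depended on the added pseudocount.

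**Figure D1:**
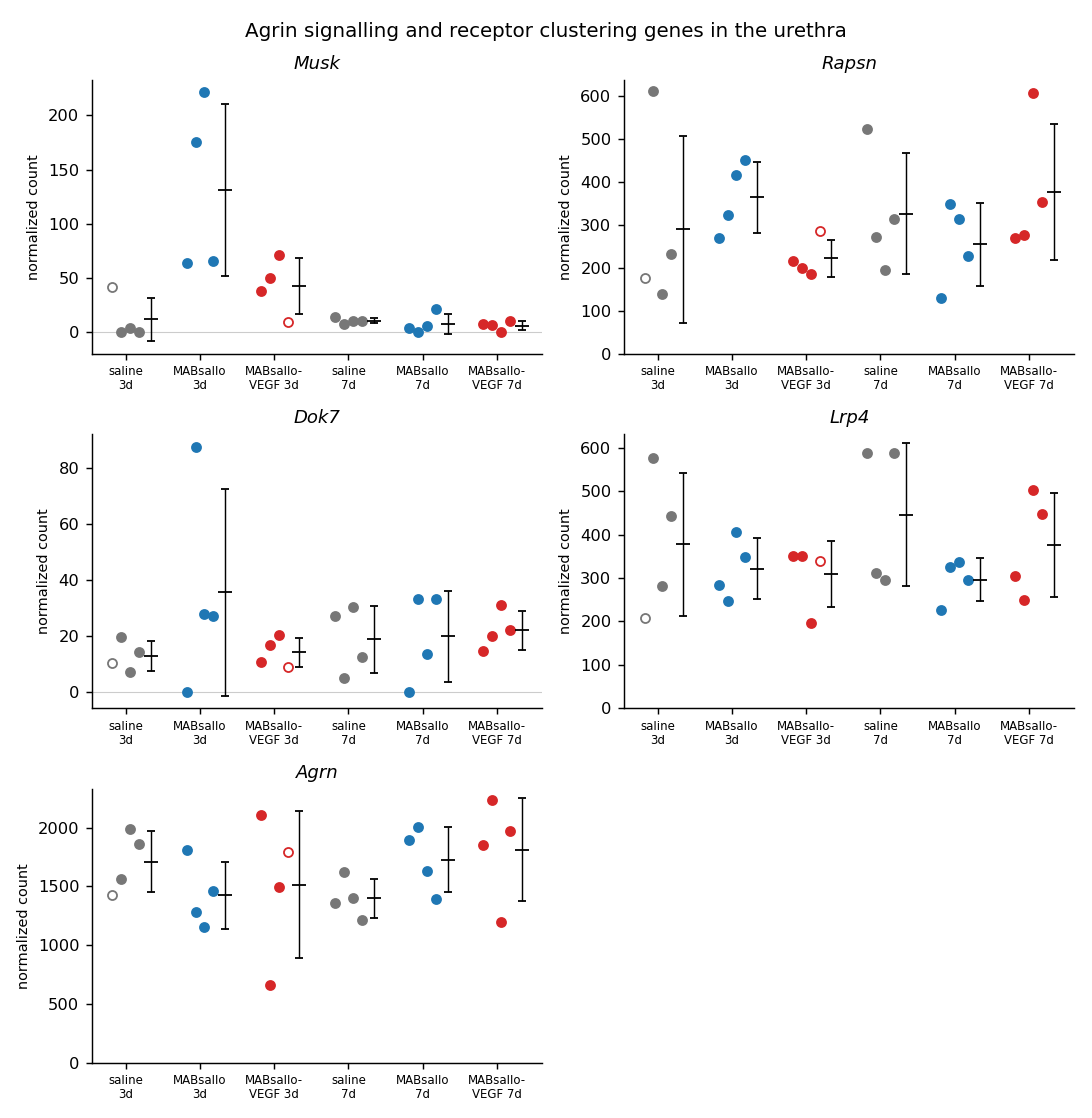
Normalized counts of Musk, Rapsn, Dok7, Lrp4 and Agrn (vertical axes, linear) in the 6 groups, 1 point per sample; open points are saline 3d replicate 6 and MABsallo-VEGF 3d replicate 4, and the bars give mean ± SD (n = 4). The 4 MABsallo 3d samples sit at 63.9 to 222 for Musk, above all samples of saline at 3d and of the 7d groups, while the other genes overlap between groups. Of all genes, 14.7% did not overlap between MABsallo and saline at 3d, and 27.0% between MABsallo at 3d and 7d.

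MABsallo-VEGF urethra at 3d held an intermediate amount of Musk, 41.8 ± 25.8 normalized counts (n = 4). Its samples had 37.8, 50.01, 70.6 and 8.91, from 7, 6, 14 and 2 reads, and the lowest was replicate 4, the sample that stood apart. They overlapped the saline range through that sample and through saline replicate 6. The difference from saline was 3.21 ± 1.07 on the log2 scale and was not called (limma, adjusted p = 0.132), and 0 of 9 members and 0.0307% of genes were called. With only 1 of these samples left out it was 4.37 without saline replicate 6 and 3.81 without MABsallo-VEGF replicate 4 (limma, adjusted p = 0.0117 and 0.0381). These were the calls in 2 of 8 fits that left out 1 sample, in which adjusted p reached 0.479 (limma), without saline 3d replicate 8. Without both of the samples that stood apart it was 4.97 ± 1.01 (limma, adjusted p = 0.00226) and 1 of 9 members was called, with 13.6% of genes. The ratio to saline was then 44.0 (interval 7.24 to 1800, again against 1 read).

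Musk did not separate the MAB groups from each other at 3d. The difference of MABsallo-VEGF from MABsallo was -1.73 on the log2 scale (95% interval -3.98 to 0.533, limma adjusted p = 0.862). That interval reaches from a large fall to a small rise, so equality was not shown either. No member was called, with 0.00614% of genes called in 24 samples and 0.0184% in 22.

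By 7d Musk was low in all groups. The saline samples had 13.5, 7.47, 10.05 and 9.43 normalized counts, a mean of 10.1 ± 2.53. Saline at 3d differed from saline at 7d by -1.55 on the log2 scale (limma, adjusted p = 0.469), a sign that turned with DESeq2 and edgeR on recovered reads (0.18 and 0.16). In 22 samples, without saline 3d replicate 6, the other saline 3d samples (0, 3.57 and 0) lay below all saline 7d samples, where 13.2% of genes did not overlap, and the difference was -2.72 and was not called (limma, adjusted p = 0.183). The MABsallo samples had 3.10, 0, 5.004 and 20.8, a mean of 7.21 ± 9.26, and the MABsallo-VEGF samples had 7.26, 5.70, 0 and 9.46, a mean of 5.604 ± 4.04. These are 0 to 5 reads per library, and the order of the 7d groups lay within their spread. In order of level, MABsallo 3d came first, then MABsallo-VEGF 3d and then the other 4 groups, whose means ran from 5.604 to 11.2 with overlapping values.

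Between 3d and 7d, Musk was higher at 3d in MABsallo urethra by 4.57 ± 1.07 (limma, adjusted p = 0.00274), with 1 of 9 members and 23.0% of genes called. The ratio of pooled levels was 20.3 (interval 10.2 to 46.2, from 77 and 9 reads). In MABsallo-VEGF urethra it was higher by 2.81 ± 1.07 and not called (limma, adjusted p = 0.0666), with 0 of 9 members and 15.3% of genes called. It was called without MABsallo-VEGF 3d replicate 4 alone (limma, adjusted p = 0.0304), in a fit with 3217 genes called. That was the call in 1 of 8 fits that left out 1 sample, in which adjusted p reached 0.223 (limma). In 22 samples the change was 3.41 ± 0.946 (limma, adjusted p = 0.0103), with 1 of 9 members and 20.3% of genes called, and the pooled ratio was 9.70 (interval 4.12 to 26.4, from 27 and 7 reads). In saline urethra 0 of 9 members were called between the days, against 3.19% of genes in 24 samples and 0.190% in 22.

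Whether the Musk difference from saline itself depended on the day was tested as an interaction. For MABsallo the 3d difference exceeded the 7d difference by 6.11 ± 1.52 on the log2 scale, and for MABsallo-VEGF by 4.36 ± 1.52. Neither was called across all genes (limma, adjusted p = 0.189 and 0.533, with 0% of genes called in each). The first was called without saline 3d replicate 6 alone (limma, adjusted p = 0.0247), in a fit with 128 genes called. That was the call in 1 of 16 fits that left out 1 sample, in which adjusted p reached 0.329 (limma). The second was called in 0 of 16. Without the 2 samples that stood apart they were 7.28 ± 1.29 and 6.13 ± 1.34 (limma, adjusted p = 0.00481 and 0.0178), each then 1 of 9 members called beside 3.56% and 3.59% of genes.

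One transcript, listed as AY172581.24, took a share of reads that moved with Musk. It held 12.1 to 20.7% of gene reads in the MABsallo 3d libraries, 0.409 to 7.31% in saline 3d and 0.269 to 1.14% in the 7d libraries. Saline replicate 6, the saline 3d sample with the most Musk reads, had the 7.31%, and MABsallo-VEGF 3d replicate 4, with the fewest Musk reads of its group, had 3.46% against 15.6 to 20.6% in the others. Over the 24 samples the log2 share had Pearson r = 0.73 with Musk and 0.76 with the summed markers of immature striated muscle given below. Its median was 15.2% in MABsallo 3d and 16.5% in MABsallo-VEGF 3d, the group with the lower mean of Musk. The part of this transcript in the Musk result, and in the results of the gene lists below, was not tested. The genes whose pattern was most like that of Musk over the 24 samples were Pygb (Pearson r = 0.91), Zmym2 (0.88), Clcn5 (0.88), Kat14 (0.87) and Nos1 (0.86), of 13847 genes with a mean of at least 10. Pygb encodes a glycogen phosphorylase and Nos1 the neuronal nitric oxide synthase, which sits in the dystrophin complex of striated fibres. Zmym2, Clcn5 and Kat14 are not described here, and whether the genes of this list share a cell type was not tested.

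The adult subunit gene Chrne (ENSRNOG00000003777) had the smallest adjusted p after Musk in MABsallo against saline at 3d. The saline 3d samples had 103, 118, 132 and 299 normalized counts, and the MABsallo samples had 178, 421, 305 and 450. In saline, 3 samples were below all MABsallo samples, and replicate 10, at 299, was inside their range. The difference was 1.10 ± 0.412 on the log2 scale (95% interval 0.233 to 1.96) and missed the threshold (limma, adjusted p = 0.0716). With replicate 10 left out it was called, at 1.43 (limma, adjusted p = 0.0330). That was the call in 1 of 8 fits that left out 1 sample, in which adjusted p reached 0.193 (limma). In 22 samples the difference was 0.93 and was not called (limma, adjusted p = 0.146). The MABsallo-VEGF samples had 373, 142, 212 and 232, overlapping both other groups, and differed from saline by 0.60 ± 0.412 (limma, adjusted p = 0.461).

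Chrnd, the delta subunit gene, had 455, 749, 279 and 1232 normalized counts in saline at 3d. It had 447, 1171, 1237 and 1866 after MABsallo and 1482, 1725, 928 and 1140 after MABsallo-VEGF. Most treated samples were above most saline samples, with overlap through saline replicate 10 and MABsallo replicate 1. The differences from saline were 0.84 ± 0.545 (limma, adjusted p = 0.298) for MABsallo and 1.13 ± 0.545 (limma, adjusted p = 0.275) for MABsallo-VEGF.

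Chrna1, the alpha subunit that binds acetylcholine, was the most variable receptor gene. Its saline 3d samples had 455, 2489, 207 and 838 normalized counts and its MABsallo 3d samples 454, 224, 1551 and 3591. The spread within each group exceeded any difference between groups, which overlapped throughout. With an SE of 0.929, the differences from saline of 0.38 (95% interval -1.57 to 2.33) and 0.50 (-1.45 to 2.45) for MABsallo and MABsallo-VEGF leave room for changes of several-fold in either direction. At 7d the same spread was seen, from 126 in MABsallo-VEGF replicate 12 to 2840 in replicate 11 of that group, with 994 and 508 in the samples labelled recovery. Over the 24 samples the patterns closest to Chrna1 were those of Banf1 (Pearson r = 0.74), Vgll2 (0.70), Herpud2 (0.70), Ca3 (0.69) and Mybpc2 (0.69). Ca3 and Mybpc2 encode proteins of striated fibres, a carbonic anhydrase and a fast myosin-binding protein. Banf1, Vgll2 and Herpud2 are not described here.

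Chrnb1, the beta subunit gene, had 138, 608, 182 and 359 normalized counts in saline at 3d and 1201, 431, 439 and 821 in saline at 7d. The 7d samples were higher save for overlap through replicate 8 at 3d. The 3d level differed from that at 7d by -1.27 ± 0.459 (limma, adjusted p = 0.122). Without replicate 8 the gene was called (limma, adjusted p = 0.0214), in a fit with 1281 genes called, against 520 in 24 samples. That was the call in 1 of 8 fits that left out 1 sample, in which adjusted p reached 0.406 (limma). Chrne moved alike in saline, at -1.02 ± 0.412 (limma, adjusted p = 0.168). All 4 receptor genes were lower at 3d than at 7d in saline, with a median difference of -0.95 against 0.05 over all genes, and none passed the test. At 3d, all 4 were higher after MABsallo than in saline, with a median of 0.70 against 0.07 over all genes, and all 4 after MABsallo-VEGF, with 0.55 against 0.04. For Chrnb1 after MABsallo-VEGF this held on the fitted log2 scale only. Its mean there was 302 ± 158 normalized counts, against 322 ± 213 in saline. The shared saline samples enter each of these comparisons. In 22 samples 3 of 4 were higher after MABsallo-VEGF.

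**Figure D2:**
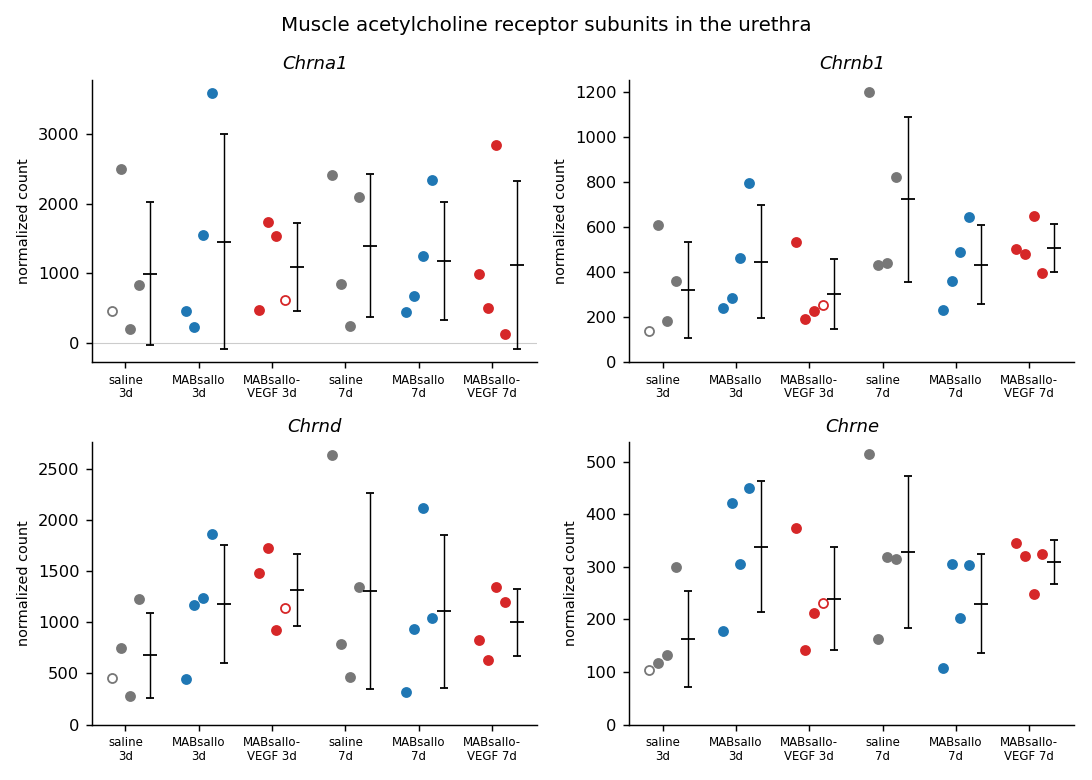
Normalized counts of the 4 receptor subunit genes (vertical axes, linear) in the 6 groups, 1 point per sample, with open points for the samples that stood apart and bars for mean ± SD (n = 4). Values within a group spread widely, for Chrna1 from 224 to 3591 in MABsallo at 3d, and the groups overlap.

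As the fetal subunit gene was not analysed here, the adult subunit was set against the shared ones, as the log2 ratio of Chrne to the mean of Chrna1, Chrnb1 and Chrnd. This measure was chosen after seeing the data. The ratio was -1.84 ± 1.14 in saline at 3d, -1.39 ± 0.797 after MABsallo and -1.96 ± 0.843 after MABsallo-VEGF (SD, n = 4). The differences from saline were 0.45 and -0.12 (exact permutation test, two-sided, p = 0.6 and 0.8286). Of 9 comparisons, the adjusted p ran from 0.845 to 0.857, and the smallest p the design allows is 0.0286. In MABsallo-VEGF urethra the ratio changed by -0.60 from 7d to 3d (exact permutation test, p = 0.343).

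The genes of receptor clustering other than Musk were not called in any comparison of the 24 samples. Rapsn, the receptor scaffold, had 176, 611, 139 and 232 normalized counts in saline at 3d, 270, 323, 415 and 450 after MABsallo, and 216, 200, 187 and 285 after MABsallo-VEGF. Saline spanned both treated groups, and MABsallo-VEGF overlapped MABsallo through replicate 4, the sample that stood apart. The difference between saline and MABsallo was 0.55 ± 0.403 (limma, adjusted p = 0.358), and that of MABsallo-VEGF from MABsallo was -0.70 ± 0.403 (limma, adjusted p = 0.846). In 22 samples, all Rapsn values of MABsallo-VEGF at 3d were below those of MABsallo at 3d, as 3.04% of genes did not overlap in that comparison in either direction.

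Dok7, the activator of MuSK, was close to the limit of detection, at 0 to 16 reads per library. In MABsallo at 3d it had 0, 87.5, 27.7 and 27.1 normalized counts against 10.3, 19.6, 7.15 and 14.1 in saline. The zero in MABsallo replicate 1 placed the groups in overlap, and the fitted difference of 0.33 ± 1.09 (limma, adjusted p = 0.866) was small against its error. Its 95% interval, -1.97 to 2.63 on the log2 scale, holds a fall and a rise of several-fold.

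Lrp4, the agrin receptor, had 207, 576, 282 and 443 normalized counts in saline at 3d, 284, 246, 406 and 347 after MABsallo, and 351, 350, 197 and 338 after MABsallo-VEGF. The MABsallo samples lay inside the saline range, with a difference of -0.15 ± 0.327 (limma, adjusted p = 0.79). Agrn had 1426, 1564, 1991 and 1858 in saline, 1811, 1280, 1154 and 1459 after MABsallo, and 2109, 658, 1498 and 1794 after MABsallo-VEGF. These overlapped, at -0.27 ± 0.268 and -0.29 ± 0.268 from saline (limma, adjusted p = 0.514 and 0.616). Agrin is made by nerve, muscle and other cells, and whole-tissue counts over its 3′ end do not tell its splice forms apart.

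At 7d, differences between groups were small against their errors. The difference of MABsallo from saline ran from -1.18 to 0.30 over the 9 genes, and the smallest adjusted p was 0.879, for Lrp4, at -0.53 ± 0.327 (limma). That of MABsallo-VEGF from saline ran from -1.15 to 0.44 and that of MABsallo-VEGF from MABsallo from -0.57 to 0.96. None of 9 members and 0% of genes were called in each of the 3 comparisons, so the test had no calls anywhere in the transcriptome at that day. At an unadjusted p under 0.05 limma gave 0 members in each and 1014, 1033 and 452 of all genes, and DESeq2 and edgeR on recovered reads called 0 members.

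**Figure D3:**
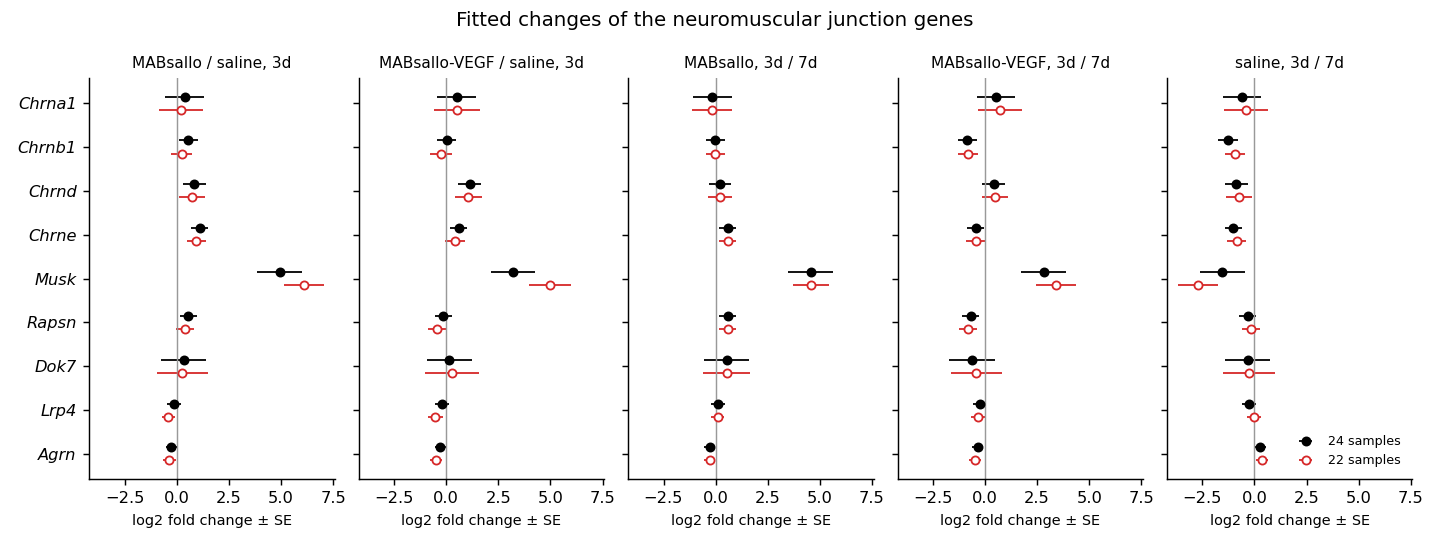
Fitted log2 fold change ± SE (horizontal axis) of the 9 genes in 5 comparisons, from the limma fit of 24 samples (black) and of 22 samples (red, open). Musk is the gene far from 0 in both MAB groups at 3d, at 4.93 and 3.21 in 24 samples, and the other genes' values lie within -1.27 to 1.13.

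Levels of most members followed those of mature striated fibre markers in the sample. The summed normalized counts of 12 mature fibre markers, such as Acta1 and Mylpf, ran from 58013 in saline 3d replicate 6 to 443886 in a MABsallo 3d sample, a range seen within groups as well as between them. Across the 24 samples, log2 levels of Chrne correlated with this sum at Pearson r = 0.76 (permutation p = 2e-05, adjusted 0.00018) and Spearman rho = 0.68 (permutation p = 0.00026, adjusted 0.000855). Without the 2 samples farthest from the median r was 0.66, and within the 12 samples of 3d and the 12 of 7d it was 0.80 and 0.66. Chrnd gave r = 0.75 (permutation p = 4e-05) and rho = 0.69 (permutation p = 0.00036), with 0.67 without the 2 farthest and 0.86 and 0.62 within days. Chrnb1 gave r = 0.73 (permutation p = 7e-05) and rho = 0.67 (permutation p = 0.00038), with 0.60 without the 2 farthest and 0.77 and 0.71 within days. Over these 3 genes, r of deviations from the group means was 0.70 to 0.80.

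The relation was looser for the rest. Rapsn, Dok7, Chrna1 and Lrp4 had r of 0.63, 0.60, 0.55 and 0.50 (adjusted permutation p = 0.00207, 0.00362, 0.00786 and 0.0157, 9 relations) and rho of 0.63, 0.71, 0.60 and 0.50. Without the 2 farthest samples their r was 0.53, 0.67, 0.49 and 0.39, and within days it ran from 0.45 to 0.74. Agrn had r = -0.23 (adjusted permutation p = 0.317) and Musk r = 0.05 (adjusted permutation p = 0.811), with rho of -0.32 and 0.16. Thus the receptor genes rose and fell with mature fibre markers across rats. Musk, whose highest values came from samples at both low and high sums of these markers, showed no such relation to that sum. In MABsallo urethra at 3d the marker sum ran from 99466 to 443886, against 58013 to 237420 in saline, and 2 of 12 markers were called as higher, beside 12.3% of all genes (Tnnt3 by 1.55 and Mylpf by 1.42, limma). The part of fibre content in the receptor values was not tested.

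**Figure D4:**
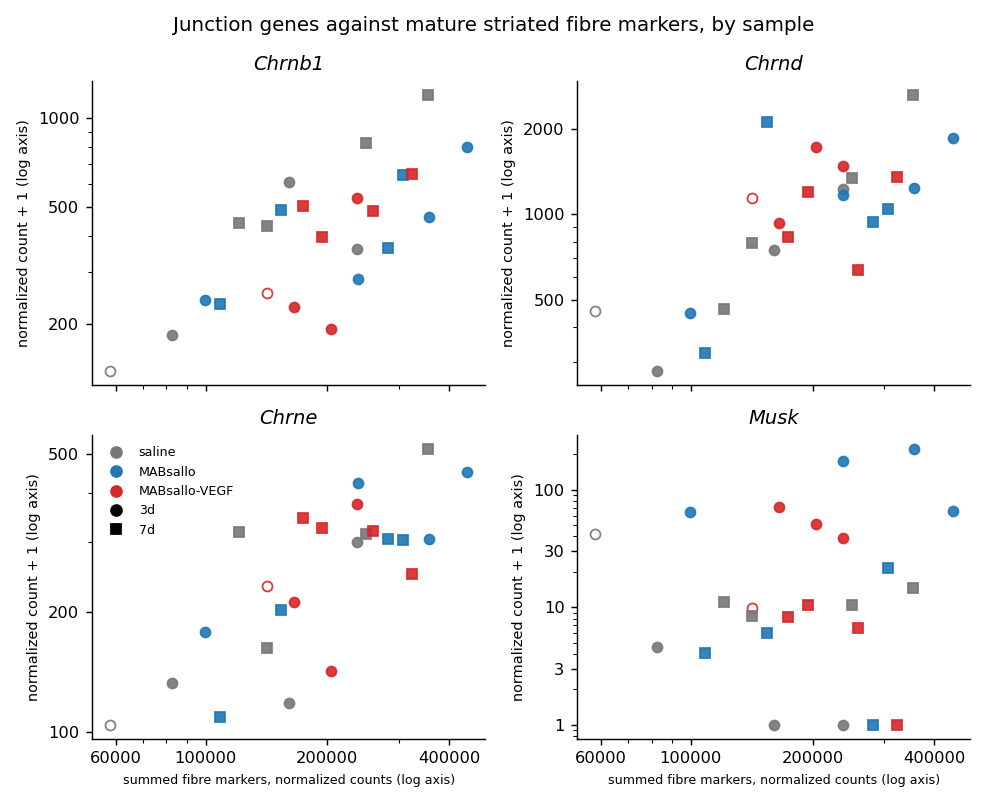
Normalized count + 1 of Chrnb1, Chrnd, Chrne and Musk (vertical axes, log) against the summed normalized counts of 12 mature striated fibre markers (horizontal axis, log), 1 point per sample; circles are 3d, squares 7d, grey saline, blue MABsallo, red MABsallo-VEGF, and open points the samples that stood apart. These receptor genes climb with the markers (r of 0.73 to 0.76), while the MABsallo 3d points of Musk lie high along the whole range.

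Of 9 markers of immature or regenerating striated muscle, 4 rose in MABsallo against saline at 3d, beside 12.3% of all genes called. These were the perinatal myosin Myh8 (4.51 on the log2 scale, limma adjusted p = 0.0059), the fusion peptide gene Mymx (3.72, adjusted p = 0.0261), the satellite cell factor Pax7 (2.96, adjusted p = 0.0455) and the embryonic myosin Myh3 (2.19, adjusted p = 0.0431). The median of the list was 1.55 against 0.07 for all genes. Their summed level ran from 14243 to 37213 normalized counts in MABsallo at 3d and from 17779 to 23376 in MABsallo-VEGF. In saline at 3d it ran from 2528 to 15653, and at 7d from 2162 to 11454. Myh8 averaged 764 in saline at 3d, 10426 after MABsallo and 4371 after MABsallo-VEGF. In MABsallo-VEGF 0 of 9 were called against saline, and 4 of 9 in 22 samples, beside 13.6% of all genes. Over the 24 samples, Musk had Pearson r = 0.68 with this summed level on the log2 scale. Chrnd had 0.56, Chrne 0.34, Chrna1 0.17 and Chrnb1 -0.09. The part of these cells in the Musk result was not tested.

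Of 16 genes of the postsynaptic scaffold and MuSK partners that were tested, 9 rose and 0 fell in MABsallo against saline at 3d, beside 12.3% of all genes called, with a median of 1.18 against 0.07 for all genes. The adaptor Crk, which binds DOK7, rose by 4.32 (limma, adjusted p = 0.0248), the syntrophin Sntb1 by 3.31 (adjusted p = 0.043) and the dystrobrevin Dtna by 3.03 (adjusted p = 0.0117). Dtna averaged 23.9 normalized counts in saline and 161 after MABsallo, whereas Sntb1 rested on 22 reads against 5. Crk was also sparse in saline, with 4 reads over the 3 saline 3d libraries other than replicate 6. In MABsallo-VEGF 0 of 16 were called, and 9 of 16 in 22 samples, beside 13.6% of all genes. MABsallo urethra at 3d exceeded that at 7d for 8 of 16, among them Crk (4.94) and Sntb1 (4.30), beside 23.0% of all genes called. MABsallo-VEGF urethra at 3d exceeded that at 7d for 5 of 16, among them Pdzrn3 (1.33) and Macf1 (1.23), beside 15.3%.

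Ion channel genes of the fibre membrane were also tested, and 4 of 5 rose in MABsallo against saline at 3d, beside 12.3% of all genes, with a median of 3.72. The chloride channel Clcn1 had 0 reads in all saline 3d libraries and 30 after MABsallo, at least 18-fold higher when saline is set at 3 reads over the group. The sodium channel Scn4a rose 16.2-fold (interval 6.45 to 52.3, 45 against 5 reads; limma adjusted p = 0.0112) and the calcium channel Cacna1s by 3.72 on the log2 scale (limma, adjusted p = 0.0157). In MABsallo-VEGF 0 of 5 were called, and 2 of 5 in 22 samples, beside 13.6% of all genes. At 3d, 4 of 5 were higher than at 7d in MABsallo, beside 23.0% of all genes, with Cacna1s higher by 4.94. In MABsallo-VEGF 3 of 5 were higher at 3d, beside 15.3% of all genes, Cacna1s by 3.88, the potassium channel Kcnj2 by 3.03 and Scn4a by 2.86.

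Of 13 genes known to respond in denervated muscle, 2 rose in MABsallo against saline at 3d, a share near the 12.3% of all genes. They were Hdac4, a deacetylase that carries the nerve signal to the nucleus (2.94, limma adjusted p = 0.015), and Fbxo32, the atrophy ubiquitin ligase atrogin-1 (2.004, adjusted p = 0.0222). Fbxo32 averaged 2039 normalized counts in saline, 6517 after MABsallo and 4467 after MABsallo-VEGF at 3d, and 461 to 1032 in the 7d groups. In MABsallo 5 of 13 were higher at 3d than at 7d and 1 was lower, beside 23.0% of all genes called. The corepressor Dach2 rested on 52 reads at 3d and 1 at 7d, a ratio of 124 (interval 21.2 to 4976), and Hdac4 was higher by 2.90 on the log2 scale. Fgfbp1 rested on 1 read at 3d and 45 at 7d, a ratio of 0.0528 (interval 0.00131 to 0.310). In MABsallo-VEGF 6 of 13 were higher at 3d, beside 15.3% of all genes called, with Dach2 at 3.48, Ankrd1 at 2.48 and Hdac4 at 2.33. In saline 1 of 13 was, beside 3.19% of all genes, the adhesion molecule Ncam1, at 1.48 (limma, adjusted p = 0.0369). In MABsallo-VEGF against saline at 3d 0 of 13 were called, and 2 of 13 in 22 samples, beside 13.6% of all genes.

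Of 8 genes of neuregulin signalling and its Ets factors, 0 were called in MABsallo against saline at 3d, beside 12.3% of all genes. The most abundant were the receptor kinase Erbb3 (627 ± 300 normalized counts in saline and 760 ± 264 after MABsallo), the Ets factor Etv5 (469 ± 74.8 and 435 ± 273) and the N-box factor Gabpa (264 ± 74.3 and 483 ± 135). In 22 samples Erbb2 was called as higher in MABsallo (limma, adjusted p = 0.0326), beside 18.1% of all genes. In MABsallo-VEGF against saline in 22 samples, beside 13.6% of all genes, Nrg1 was higher by 2.20 (limma, adjusted p = 0.0492). Gabpb1, a partner of GABPA, was lower there, at -1.05 (limma, adjusted p = 0.0290). In MABsallo 4 of 8 were higher at 3d than at 7d, beside 23.0% of all genes called. Erbb2 had 52 reads at 3d and 0 at 7d, at least 41.2-fold higher, and Erbb4 had 5 and 2 reads, a ratio of 5.94 (interval 0.973 to 62.4). Gabpa was higher by 1.05 and Erbb3 by 1.01 (limma, adjusted p = 0.00769 and 0.0232). In MABsallo-VEGF 1 of 8 was, beside 15.3% of all genes called, the ligand gene Nrg1, by 2.59 (limma, adjusted p = 0.00682).

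Of 8 genes of the synaptic cleft and its basal lamina, 0 were called against saline at 3d, beside 12.3% of all genes for MABsallo and 0.0307% for MABsallo-VEGF. The laminin chains Lamb2, Lama5 and Lama4 were the most abundant. Lamb2, whose product is concentrated at the synapse, averaged 11424 ± 3961 normalized counts in saline and 5670 ± 1729 after MABsallo, Lama5 averaged 1094 ± 308 and 1038 ± 327, and Lama4 averaged 954 ± 221 and 1828 ± 478. In 22 samples Lamb2 was called as lower than in saline in both MAB groups, at -1.28 and -1.47 (limma, adjusted p = 0.00958 and 0.00786). There 18.1% and 13.6% of all genes were called. Lamb2 was lower at 3d than at 7d, with a difference of -1.14 in MABsallo and -1.13 in MABsallo-VEGF, where Lama4 was higher at 3d by 1.05. Between these days 23.0% and 15.3% of all genes were called.

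From a list of genes of the cholinergic nerve terminal, 1 of 7 was called between the days. The counts are of whole urethra, and which cells held these RNAs was not tested. Gap43, the growth cone protein, was higher at 3d than at 7d by 2.91 in saline, 2.06 in MABsallo and 2.21 in MABsallo-VEGF (limma, adjusted p = 0.00233, 0.00118 and 0.00112). In these comparisons 3.19%, 23.0% and 15.3% of all genes were called. The mean of Gap43 at 3d was 1655 ± 207 normalized counts in saline, 1365 ± 576 after MABsallo and 1757 ± 843 after MABsallo-VEGF. Against saline 0 of 7 genes were called, beside 12.3% of all genes for MABsallo and 0.0307% for MABsallo-VEGF. The synaptic vesicle genes Vamp1 (479 ± 174 in saline and 385 ± 140 after MABsallo) and Sv2a (449 ± 164 and 433 ± 252) were the next most abundant. Of 11 neuronal acetylcholine receptor genes, 3 passed the filter, Chrna4, Chrnb4 and Chrna9, at means of 28.4, 6.19 and 6.37 in saline at 3d. One was called, Chrnb4, which had 1 read at 3d and 37 at 7d in MABsallo, a ratio of 0.0643 (interval 0.00158 to 0.381). In that comparison 23.0% of all genes were called.

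**Figure D5:**
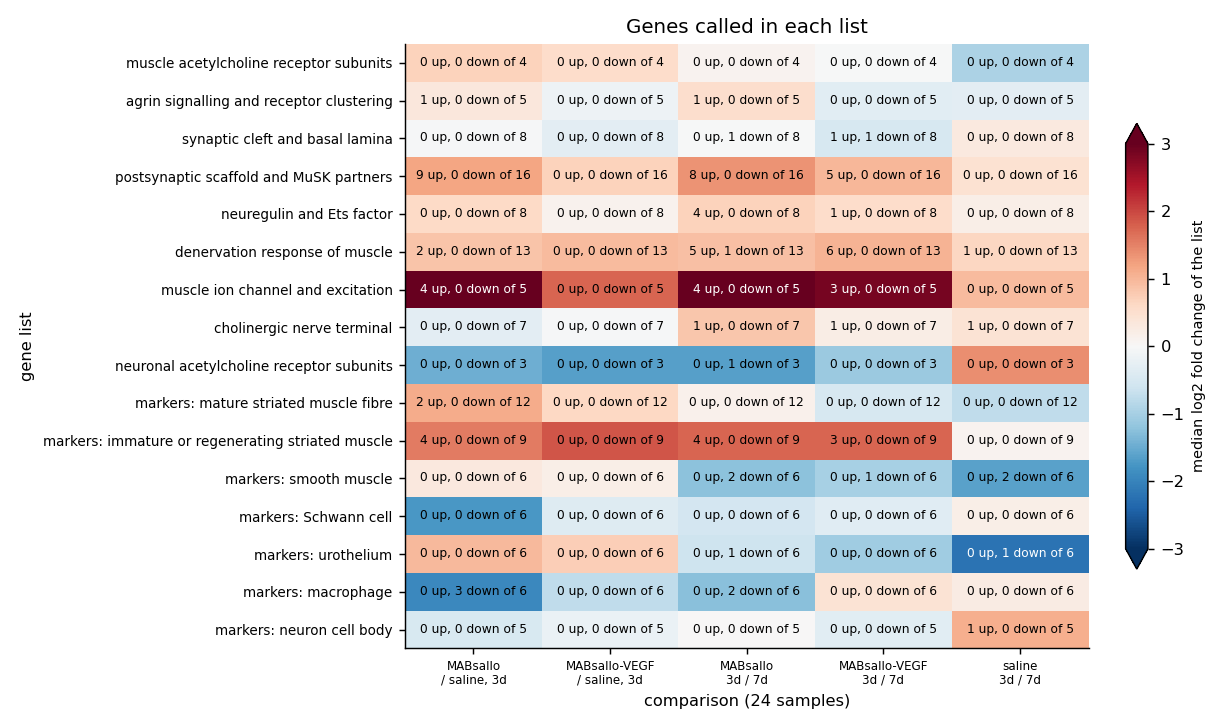
Number of genes called as higher (up) or lower (down) of those tested in each list (rows) and comparison (columns), from the limma fit of 24 samples, on a colour scale of the median log2 fold change that ends at -3 and 3. Scaffold, ion channel and immature muscle lists show calls in MABsallo against saline at 3d, 9 of 16, 4 of 5 and 4 of 9, beside 12.3% of all genes. The receptor subunits show 0 of 4 in every comparison.

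Markers of other cells in the urethra moved in part. Of 6 macrophage markers 3 were called as lower in MABsallo than in saline at 3d, beside 12.3% of all genes called in either direction. C1qb fell by 2.26, Csf1r fell by 2.11 and C1qa fell by 1.74. The summed level of the 6 markers ran from 788 to 7829 normalized counts in MABsallo, 2812 to 11968 in MABsallo-VEGF and 8240 to 18222 in saline. None of 6 smooth muscle, 6 Schwann cell, 6 urothelial or 5 neuronal markers was called in that comparison. All 6 Schwann cell markers were lower, with a median of -1.75 against 0.07 over all genes. The summed smooth muscle level was 75680 to 120451 after MABsallo and 16368 to 157032 in saline, and the Schwann cell level was 3202 to 9257 and 8880 to 36166. The urothelial level was 9661 to 27357 and 780 to 16564.

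Between 3d and 7d in saline, 2 of 6 smooth muscle markers were lower at 3d (Acta2 at -1.94 and Smtn at -1.29), beside 3.19% of all genes called. There 1 of 6 urothelial markers was lower (Upk2 at -6.002) and 1 of 5 neuronal markers was higher (Prph at 1.35). In MABsallo the values were -1.94 for Acta2, -1.32 for Tagln, -3.99 for Upk2, -2.61 for C1qb and -1.41 for C1qa. In MABsallo-VEGF Acta2 was at -1.40. In these comparisons 23.0% and 15.3% of all genes were called. The part of these markers in the values of the junction genes was not tested.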

How the data were processed

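RNA of urethral tissue (4 rats per group) was read from 3′ libraries made with the Lexogen QuantSeq kit, with 50-base single reads aligned to Rnor6.0 with HISAT2 and counted per gene with HTSeq; versions are not given in the sources used here. The authors deposited 1 table of gene counts divided by each sample's DESeq2 size factor, a signal in which each sample's values are whole multiples of what 1 read is worth (100% of values within 0.001 of a whole number), so reads were recovered by division.

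Values were fitted as log2(value + 1) with limma 3.58.1 (R 4.3.3), with the trend of variance on level, 6 groups in 1 fit, a mean of at least 2 and Benjamini-Hochberg adjustment over all 16287 genes. Calls required an adjusted p under 0.05 together with more than 1 on the log2 scale. The study tested with DESeq2, which needs counts; DESeq2 1.42.0 and edgeR 4.0.16 were run on recovered reads as alternatives. The fits were tested on simulated data. Members and gene lists were chosen with earlier results of these data known. Named genes were all members, the 5 genes most alike to Chrna1 and Musk, and, from each list, up to 3 called genes with the largest change or, where none was called against saline at 3d, the most abundant; Myh3 and Erbb3, which complete a count of 4, and Gabpb1 were added after their values were seen. A called gene that the rule would name is not reported here. The planned ratio of Chrng to Chrne could not be run, and Chrne over the shared subunits was used instead. Intervals of log2 changes use 18 residual degrees of freedom; intervals of read ratios and floors of 3 reads cover counting error only, and reads carry no molecular identifiers. Pairs of replicates differed beyond sampling noise (chi-square per degree of freedom 9.78 to 132.9). Promoters were read from RefSeq (GRCr8). Depth was 2170695 to 10166052 reads per sample.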

Additional observations from a re-analysis of the deposited data

Results flagged for a closer look

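In 54 sets of 4 samples (9 genes in 6 groups), 3 held a sample far from the others by Dixon's test at the 95% level; chance flags about 1 set in 20. Musk in saline 3d replicate 6 was at 41.3 normalized counts, with 0 to 3.57 in the other 3 samples. This is the library that stood apart on the first principal component and that held the largest share of AY172581.24 reads of its group. Chrne in saline 3d replicate 10 was at 299.1 against 103.3 to 132.2 in the others. Lrp4 in MABsallo-VEGF 3d replicate 3 was at 196.8 against 338.4 to 351.5.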

How the results depend on the processing

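The number of members called in MABsallo against saline at 3d was 1, and 0 where only the groups compared were fitted; it was 1 to 2 with 1 sample left out. In MABsallo-VEGF against saline at 3d it was 0, and 1 in 22 samples by limma, DESeq2 and edgeR alike, with 0 to 1 when 1 sample was left out. In MABsallo-VEGF between 3d and 7d it was 0, and 1 with a pseudocount of 5, with DESeq2 on recovered reads and in 22 samples by each of the 3 tools, with 0 to 1 when 1 sample was left out. In both interactions it was 0, and 1 in 22 samples by each tool; leaving out 1 sample gave 0 to 1 for MABsallo, and in saline between the days 0 to 1. The gene gained was Musk, save Chrne in MABsallo against saline without saline 3d replicate 10 and Chrnb1 in saline between the days without saline 3d replicate 8.

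Direction changed only for values that were not called. Against saline at 3d, Dok7 after MABsallo was -0.0914 with quantile normalization, and Chrna1 after MABsallo-VEGF was -0.0442 with edgeR in 22 samples. Musk in saline at 3d against 7d was 0.18 with DESeq2 and 0.16 with edgeR on recovered reads of all samples. With 1 sample left out, Chrna1 ran from -0.30 to 1.03 after MABsallo and from -0.0598 to 1.13 after MABsallo-VEGF, Dok7 from -0.48 to 1.67 and Lrp4 from -0.40 to 0.0912 after MABsallo, and Agrn from -0.49 to 0.0735 after MABsallo-VEGF. The ratio of Chrne to the shared subunits ran from -0.0765 to 0.82 after MABsallo and from -0.65 to 0.25 after MABsallo-VEGF, and its difference between 3d and 7d in MABsallo-VEGF from -1.05 to -0.23. Over all members and comparisons, 52 of 990 values under other settings and 84 of 936 with 1 sample left out changed sign.

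Counts of genes called over the transcriptome moved most. For MABsallo against saline at 3d they were 1997, with 5 where only the groups compared were fitted, 369 without saline 3d replicate 8 and 2951 in 22 samples. For MABsallo-VEGF they were 5, with 0 after scaling to the same total, 1258 without MABsallo-VEGF 3d replicate 4 and 2304 with DESeq2 in 22 samples. For saline between the days they were 520, with 0 where only those groups were fitted, 22 without saline 3d replicate 6 and 1387 with DESeq2. The cause was not tested. For 7d, DESeq2 called 29 genes in MABsallo-VEGF against saline and 4 against MABsallo, where limma called 0.

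MABsallo and MABsallo-VEGF at 3d share replicate numbers, but same-numbered samples correlated in their deviations at 0.222, 0.151, 0.0734 and 0.254. Replicates 1, 2 and 4 correlated best with their own number and replicate 3 did not, a hint from the data that falls short of a pairing. Fitting only these groups gave 524 genes at an unadjusted p under 0.05 by limma, and 1215 with a replicate block, with 0 genes called in each. With the block Musk differed by -1.73 (limma, adjusted p = 0.568) and 0 members were called. The planned ratio of Chrng to Chrne was not run. Depth limits Musk and Dok7 most, at 0 to 32 and 0 to 16 reads per library.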
